A study of Mus musculus with 8 samples.

Results

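The S100 proteins are small calcium-binding proteins, and 10 of their genes are described here in mouse embryonic fibroblasts that carry, lack or regain Taf4. The members were the rows of the deposited table named S100a1, S100a3, S100a4, S100a6, S100a8, S100a9, S100a10, S100a11, S100a13 and S100a16, out of 23281 genes, and levels are in FPKM, sequenced fragments scaled to transcript length and library total. Each has 1 transcript in the table. S100a9 was listed at 0 FPKM in all 8 libraries, and the other 9 genes were among the 12025 tested. The finding that separated the cell lines most was S100a8, which was lower in the TAFH-deleted than in the wild-type rescue clones. S100a6, S100a11 and S100a13 had fragment numbers, not scaled to library totals, that varied by at most 1.10 times over the 8 libraries. In FPKM, S100a6 ranged from 91.6 to 113.4, S100a11 from 43.7 to 55.9 and S100a13 from 51.0 to 60.4.

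S100 proteins carry a pair of EF-hands, helix-loop-helix motifs that hold a calcium ion, and most act as dimers. Calcium binding exposes a surface through which they bind target proteins such as annexins, myosin and tropomyosin, whereas S100a10 has lost calcium binding and holds its target without it. In fibroblasts S100a4, also called fibroblast-specific protein, and S100a6, or calcyclin, are known as abundant family members, and S100a8 and S100a9 are known as an alarmin pair of neutrophils and macrophages that other cells can make during inflammation.

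The cells came from C57BL/6 mice and formed 4 groups of 2 libraries. TAFH-deleted rescue cells were 2 clones of Taf4 -/- cells that stably express human TAF4 (hTAF4 Δ) lacking the TAFH domain, the part of TAF4 known to contact E proteins. Wild-type rescue cells were 2 clones of Taf4 -/- cells that stably express wild-type human TAF4 (hTAF4 wt). Knockout cells were Taf4 -/- with no transgene, and control cells were Taf4 loxp/-, with 1 floxed and 1 null allele (a separate label gives them as wild type). The control cells thus share a null allele with all other groups. The promoter of the transgene, and whether libraries of 1 group came from separate cultures, are not given in the sources used here. The p-values of the main fit cover only the spread between the 2 clones of each rescue form. The spread within the knockout and control pairs may be technical.

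Low FPKM values were whole multiples of 1 fragment and implied totals of 14.3 to 17.3 M (mega) fragments per library. The 2 knockout libraries and the 2 control libraries differed by less than sampling noise, with a chi-square per gene of 0.608 ± 0.0306 (SE) and 0.776 ± 0.0347 (SE), where independent reads give 1. It was 2.39 ± 0.0951 (SE) between the TAFH-deleted clones and 1.64 ± 0.0640 (SE) between the wild-type rescue clones. The knockout and the control pair each entered the tests as a mean, counted as 1 sample, and carry no replicate error of their own, while each rescue clone was 1 sample. Taf4a, the targeted gene, was at 12.5 and 12.4 FPKM in knockout and at 11.1 and 11.5 FPKM in control libraries. Which exons were deleted is not in the labels, so this level does not check them, and "knockout" below means the libraries with that label. Of 10 fibroblast markers 9 reached 1 FPKM and Thy1 stayed under 0.5 FPKM in every library. Their levels differed between groups: Dcn, decorin, was at 0 and 0.0387 FPKM in TAFH-deleted clones, 19.1 and 11.6 in wild-type rescue clones, 0.642 and 0.642 in knockout, and 24.0 and 24.4 in control. The summed level of the 10 was 664.8 and 567.8 FPKM in TAFH-deleted clones, 718.0 and 715.1 in wild-type rescue clones, 698.1 and 699.0 in knockout, and 688.8 and 690.5 in control. Gapdh, which every cell uses, was listed at 0.0682 to 0.599 FPKM, so a listed value near 0 need not mean that a transcript was absent.

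All 10 genes lie on chromosome 3. In mm9 coordinates counted from 1, 8 of them fall within 184.7 kb, from S100a1 at 90314955 to S100a9 ending at 90499613, and S100a11 and S100a10 follow after a gap of 2.82 Mb, the last ending at 93368567. S100a13 starts 0.104 kb past the end of S100a1, and S100a4 starts 1.07 kb past the end of S100a3. Their transcripts are short: they measured 392 (S100a8) to 1061 bases (S100a16), with a median of 632.5, against a median of 2800 bases for the tested genes. The fragments behind a given FPKM are therefore few, and in S100a8 1 fragment was worth 0.308 to 0.373 FPKM.

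Because TAF4 and E proteins are the subject of the series title, promoter windows were searched for E-box letters, CANNTG on either strand, which is the core that E proteins are known to bind. RefSeq windows of 300 bases (250 before to 50 after a start, GRCm38.p6) were found for 9 of the 10 members by symbol, 13 windows in all, and 11 of the 13 held CANNTG, as did 72.3% of the 32851 windows of all genes. None was found for S100a10. The S100a8 window (chr3:90668821-90669120, plus strand) is shown because this gene differed most between the rescue forms. It held 3 such motifs, 2 of them CAGCTG, and a TATAAA. Of all windows 17.6% held 3 or more CANNTG and 1.9% held 2 or more CAGCTG. Other members had such letters too: 1 S100a3 window held 3 CANNTG, and 1 S100a16 window held 4, a number reached by 6.49% of all windows. CAGCTG was in 5 of the 13 windows and in 16.3% of all windows, and most of the 5 were windows of S100a3 alone. TATAAA was in 8.32% of all windows. The S100a1 window held no CANNTG. The S100a4 window (chr3:90603520-90603819, plus strand), of the member with the largest difference between knockout and control, held TATAAA and no CANNTG. The S100a13 window (chr3:90514185-90514484, plus strand), of the tested member with the smallest range of log2(FPKM + 1), overlaps that of S100a1 on the other strand. Capitals mark CANNTG, sequences run 5′ to 3′, and a match describes letters only.
S100a8: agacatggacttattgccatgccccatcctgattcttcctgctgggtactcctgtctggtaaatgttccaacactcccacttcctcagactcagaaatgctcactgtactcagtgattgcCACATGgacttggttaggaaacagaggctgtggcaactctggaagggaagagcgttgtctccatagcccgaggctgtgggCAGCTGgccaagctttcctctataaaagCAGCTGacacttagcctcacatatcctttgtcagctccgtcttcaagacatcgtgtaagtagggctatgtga
S100a4: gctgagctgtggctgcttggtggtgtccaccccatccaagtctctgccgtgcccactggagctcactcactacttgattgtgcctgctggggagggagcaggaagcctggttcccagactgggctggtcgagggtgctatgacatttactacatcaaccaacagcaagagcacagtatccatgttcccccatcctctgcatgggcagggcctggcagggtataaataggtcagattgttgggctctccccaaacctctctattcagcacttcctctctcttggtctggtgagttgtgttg
S100a13: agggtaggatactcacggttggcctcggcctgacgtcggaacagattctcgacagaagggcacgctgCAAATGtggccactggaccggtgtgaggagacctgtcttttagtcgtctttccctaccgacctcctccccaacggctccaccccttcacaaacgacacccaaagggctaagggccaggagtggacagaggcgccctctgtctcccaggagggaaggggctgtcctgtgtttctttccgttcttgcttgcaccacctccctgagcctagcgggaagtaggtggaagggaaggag

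FPKM are scaled to transcript length, but levels of different genes can be compared only roughly here. Gapdh is listed near 0, and the fragments of S100a4 and S100a10 numbered up to 74.9% and 71.7% of their transcript bases on both strands. The members with the highest mean over the 8 libraries were S100a10 at 115.5 FPKM, above 99.6% of tested genes, S100a4 at 110.3, S100a6 at 98.6 and S100a1 at 88.7. S100a13 averaged 56.2 FPKM and S100a11 49.5. S100a16 stood at 19.0, S100a8 at 16.3 and S100a3 at 4.22 FPKM. The summed level of the 10 genes was 572.0 FPKM in TAFH-deleted clones, 531.6 in wild-type rescue clones, 557.5 in knockout and 572.6 in control, so opposite differences of single members left the family total nearly level.

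**Figure D1:**
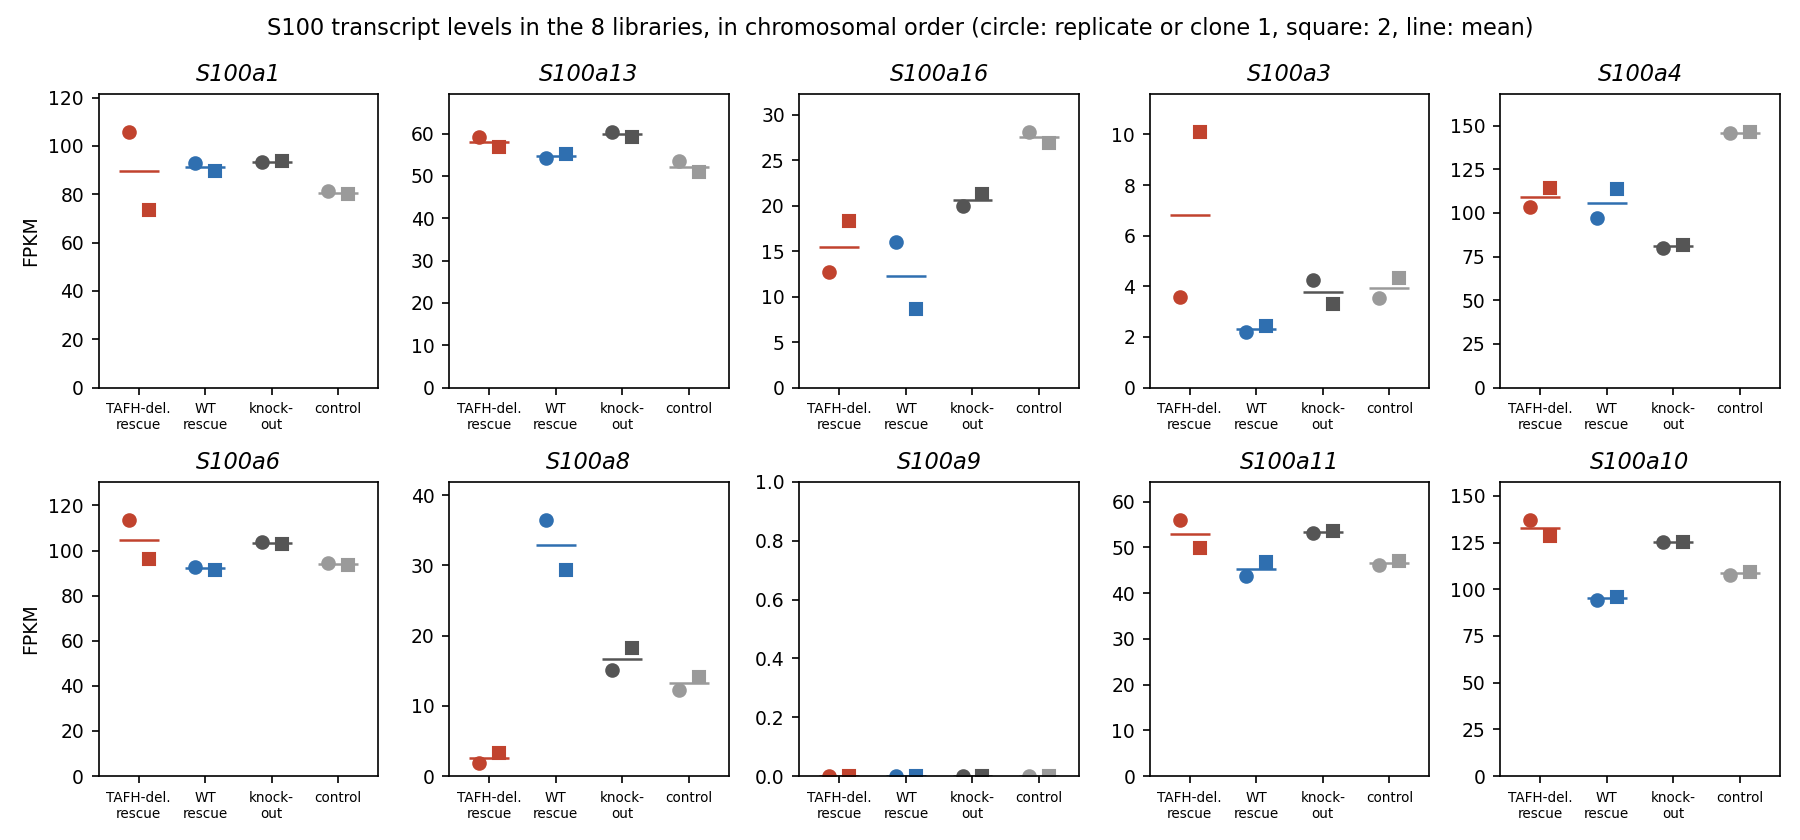
FPKM of each S100 gene (vertical axis, from 0, own scale per gene) in the 8 libraries by group (horizontal axis), with circles for replicate or clone 1, squares for 2 and lines for group means. S100a8 sits at 1.86 and 3.28 FPKM in TAFH-deleted clones and at 36.4 and 29.3 in wild-type rescue clones, S100a4 is highest in control at 145.6 and 146.4, and S100a9 is at 0 throughout.

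The alarmin gene S100a8 had the widest range. It had 1.86 and 3.28 FPKM in TAFH-deleted clones, 36.4 and 29.3 FPKM in wild-type rescue clones, 15.1 and 18.3 FPKM in knockout, and 12.3 and 14.1 FPKM in control. No 2 groups overlapped, which says little of knockout and control, whose pairs each differ by less than sampling noise. The knockout and control values stood next to each other between the rescue forms. S100a8 averaged 2.57 ± 0.998 FPKM in TAFH-deleted clones and 32.9 ± 5.09 FPKM in wild-type rescue clones (SD, n = 2 each), a 12.8-fold lower mean. The difference of log2(FPKM + 1), a scale that shrinks differences between low values, was -3.27 ± 0.27 (SE), and it passed the limma test with a Benjamini-Hochberg adjusted p of 0.0389. Every clone of the TAFH-deleted form lay below every clone of the wild-type form. The adjusted p ranged from 3.11e-04 to 0.537 over the alternatives. The call was lost when wild-type rescue clone 1 (adjusted p = 0.537) or clone 2 (0.419) was left out, which leaves that form 1 sample, and without a filter on low values (0.0888). The size stayed between -3.67 and -2.98 in all of them.

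These values rest on few fragments: 5 and 10 in TAFH-deleted clones, 117 and 93 in wild-type rescue clones, 42 and 51 in knockout, and 40 and 46 in control. For the TAFH-deleted clones the exact Poisson 95% intervals, which cover counting error only, ran from 0.606 to 4.35 and from 1.57 to 6.03 FPKM. For the wild-type rescue clones they ran from 30.2 to 43.7 and from 23.6 to 35.9 FPKM, so the intervals of the 2 forms were far apart. Those of knockout (10.9 to 20.4 and 13.6 to 24.1 FPKM) and of control (8.81 to 16.8 and 10.4 to 18.9 FPKM) overlapped each other. Against knockout, the S100a8 log2 difference was -2.34 ± 0.33 (SE) for TAFH-deleted rescue (limma adjusted p = 0.437) and 0.93 ± 0.33 for wild-type rescue (adjusted p = 0.367). Against control it was 1.24 ± 0.33 for wild-type rescue (adjusted p = 0.360) and 0.31 ± 0.38 for knockout (adjusted p = 0.803). None of these passed. The authors' deposited table calls S100a8 between wild-type rescue and knockout (q-value 0.0153) and not between TAFH-deleted rescue and knockout (q-value 0.205).

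S100a9, which encodes the usual partner of S100a8 in the heterodimer calprotectin, was listed at 0 FPKM in each of the 8 libraries although S100a8 reached 36.4 FPKM. Markers of the myeloid cells in which this pair is abundant were set beside it. Of 12 macrophage and neutrophil markers listed, 4 reached 1 FPKM (Csf1r, Cd68, Lyz2 and Camp), and Ptprc, the pan-leukocyte marker, was at 0 in 7 libraries and 0.0229 FPKM in control replicate 2. Mpo, a neutrophil granule enzyme, was at 0 throughout, and Itgam stayed at or under 0.0138 FPKM. The summed level of the 12 was 4.28 and 4.55 FPKM in TAFH-deleted clones, 13.5 and 8.09 in wild-type rescue clones, 8.19 and 7.90 in knockout, and 7.14 and 8.88 in control. It was thus lowest where S100a8 was lowest. Lyz2, lysozyme, was at 0.0822 and 0 FPKM in TAFH-deleted clones and 7.76 and 2.70 in wild-type rescue clones. Single markers did not all follow the sum. Csf1r was at 0.134 and 1.09 FPKM in TAFH-deleted clones, and Cd68 at 1.05 and 3.45. Both were lowest of the 8 libraries in clone 1 and highest in clone 2. Camp, at 3.02 and 0 FPKM, lay above both wild-type rescue clones in clone 1 and below both in clone 2. Fibroblast markers also differed between the rescue forms, the comparison in which S100a8 and S100a10 were called. Of the 9 tested, 6 were lower and 3 higher in TAFH-deleted than in wild-type rescue clones, and 2 were called, Dcn at -3.96 ± 0.29 (SE, limma adjusted p = 0.0366) and Pdgfra, a growth factor receptor, at -2.33 ± 0.15 (0.0366). Against knockout all 9 tested were lower in TAFH-deleted rescue, with a median of -0.26 and none called. The part of these markers in the S100 differences was not tested. In bulk RNA, fewer cells that make a transcript and less of it per cell cannot be told apart.

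The 5 genes whose profile over the 6 samples was nearest to that of S100a8, among 9802 genes with a mean of at least 5 FPKM, were Lifr, a cytokine receptor, Mmp2, a matrix metalloproteinase, Stbd1, Khdrbs3 and Adora2b, an adenosine receptor. Their root mean square distances from it were 0.29 to 0.34 on the centred log2(FPKM + 1) scale. Mmp2 was at 6.35 and 6.95 FPKM in TAFH-deleted clones, 69.9 and 71.0 in wild-type rescue clones, 49.3 and 48.4 in knockout, and 46.4 and 46.6 in control. Lifr was at 1.29 and 1.85 FPKM in TAFH-deleted clones, 15.8 and 13.2 in wild-type rescue clones, 10.4 and 10.4 in knockout, and 7.67 and 7.51 in control. These genes lie on other chromosomes than the S100 genes. No other tested S100 member was near: their distances from S100a8 were 1.38 (S100a1) to 1.82 (S100a3). Of the genes compared, 38.2% were nearer to S100a8 than S100a1 was, and 98.1% nearer than S100a3.

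**Figure D2:**
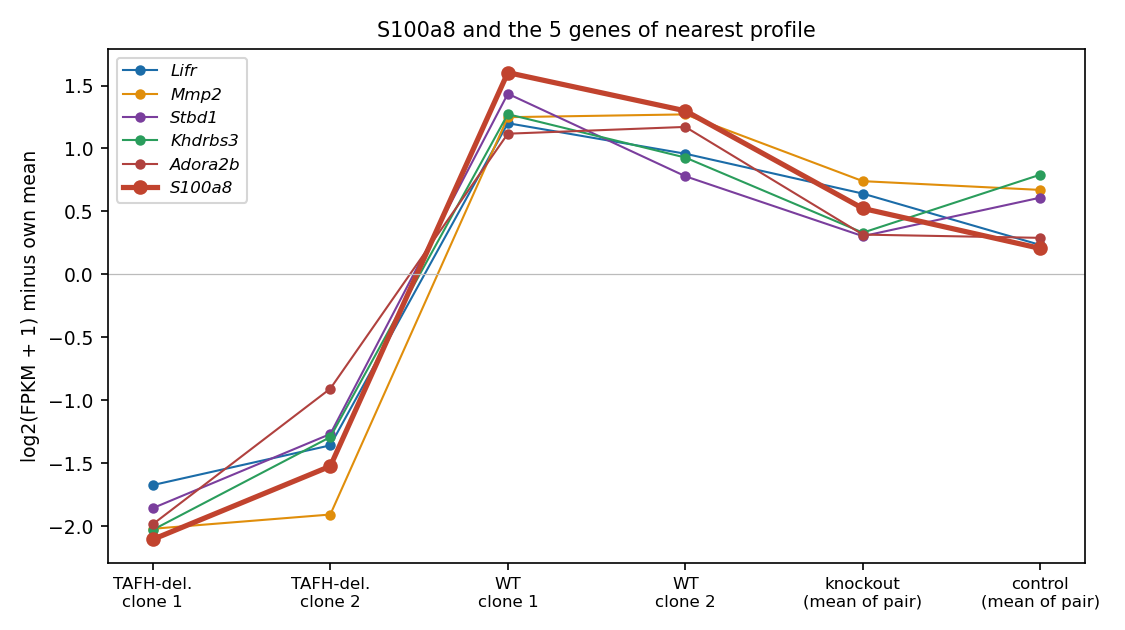
Level of S100a8 (thick line) and of the 5 genes of nearest profile as log2(FPKM + 1) minus the gene's own mean (vertical axis) in 6 samples (horizontal axis: each rescue clone, and the mean of the knockout pair and of the control pair). All 6 genes are lowest in the TAFH-deleted clones and highest in the wild-type rescue clones.

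Among the annexin-binding members S100a10 was the one that passed a test. S100a10, also called p11, pairs with annexin A2 at the membrane. It was at 136.9 and 128.7 FPKM in TAFH-deleted clones, 94.4 and 96.0 FPKM in wild-type rescue clones, 125.2 and 125.5 FPKM in knockout, and 107.9 and 109.1 FPKM in control. The order was wild-type rescue, control, knockout, TAFH-deleted rescue, with no overlap between neighbours, where the knockout and control pairs each count as 1 sample. Means were 132.8 ± 5.78 FPKM in TAFH-deleted and 95.2 ± 1.11 FPKM in wild-type rescue clones (SD, n = 2 each), a log2 difference of 0.48 ± 0.06 (SE), with a limma adjusted p of 0.0497. That p ranged from 7.07e-04 to 0.619 over the alternatives. The call was lost under 5 planned settings that kept all clones (adjusted p from 0.0504 to 0.114), and without wild-type rescue clone 1 (0.619) or clone 2 (0.534). The log2 difference was 0.32 after quantile normalization, a scaling under which it did not pass. Annexin A2 itself, Anxa2, was at 139.4 and 131.3 FPKM in TAFH-deleted clones, 110.0 and 109.2 in wild-type rescue clones, 131.4 and 132.3 in knockout, and 116.8 and 115.0 in control, the same order of group means as S100a10, although TAFH-deleted and knockout values overlapped. The difference of Anxa2 between the rescue forms was 0.30 ± 0.06 (SE) and did not pass (limma adjusted p = 0.0754).

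S100a11, a partner of annexin A1, and S100a6, which binds annexins and the calcyclin-binding protein Cacybp, differed less. S100a11 was at 55.9 and 49.9 FPKM in TAFH-deleted clones, 43.7 and 46.7 in wild-type rescue clones, 53.1 and 53.6 in knockout, and 46.2 and 47.0 in control. S100a6 was at 113.4 and 96.1 FPKM in TAFH-deleted clones, 92.9 and 91.6 in wild-type rescue clones, 103.9 and 103.1 in knockout, and 94.4 and 93.5 in control. For both genes the TAFH-deleted clones lay above the wild-type rescue clones, by 0.22 ± 0.09 (SE) and 0.18 ± 0.10 on the log2 scale, without passing the limma test (adjusted p = 0.214 and 0.307). The S100a11 difference was 0.14 without TAFH-deleted clone 1 and 0.30 without clone 2. That of S100a6 was 0.06 without clone 1 and 0.29 without clone 2. In fragments the log2 ratios were 0.06 for S100a11 and 0.02 for S100a6, whose clones then overlapped, with 833 and 803 in TAFH-deleted and 817 and 798 in wild-type rescue. The TAFH-deleted clones of S100a6 spanned the knockout values, so these 2 groups did not separate.

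S100a4, which binds the heavy chain of non-muscle myosin and is used as a fibroblast marker, was the member with the largest difference between knockout and control. It was at 80.1 and 81.7 FPKM in knockout and at 145.6 and 146.4 FPKM in control, a 1.8-fold lower mean. The rescue clones lay between, at 103.6 and 114.3 FPKM with the TAFH-deleted form and 96.9 and 113.9 FPKM with the wild-type form, and these overlapped each other. The log2 difference of knockout from control was -0.84 ± 0.15 (SE), with a limma adjusted p of 0.270 and an unadjusted p of 0.00455, where each side is 1 averaged sample and the spread comes from the rescue clones alone. It passed without either TAFH-deleted clone, which are not in this comparison, and in the fits that count 8 libraries. It did so along with many other genes, in the fits of 8 libraries 2857 of 12025, or 2019 with a replicate block. Over all alternatives its adjusted p ranged from 0.00258 to 0.760 and its size from -0.94 to -0.83. The authors' deposited table gives a q-value for S100a4 between these groups that is listed as 0. Wild-type rescue differed from knockout by 0.37 ± 0.13 (limma adjusted p = 0.367), TAFH-deleted rescue from knockout by 0.42 ± 0.13 (0.740), and wild-type rescue from control by -0.47 ± 0.13 (0.371). The 2 rescue forms differed by 0.05 ± 0.11 (0.785), which does not show that they act alike.

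S100a16, a widely expressed member of little known function, followed S100a4 only in being highest in control. It was at 12.7 and 18.3 FPKM in TAFH-deleted clones, 16 and 8.63 in wild-type rescue clones, 19.9 and 21.3 in knockout, and 28.1 and 26.9 in control. The rescue clones overlapped each other and all lay below knockout. The log2 difference of wild-type rescue from control was -1.16 ± 0.43 (SE, limma adjusted p = 0.455), of knockout from control -0.40 ± 0.50 (0.810), and of wild-type rescue from knockout -0.75 ± 0.43 (0.523). The first of these was -1.57 without wild-type rescue clone 1 and -0.75 without clone 2, and the last was -1.16 without clone 1 and -0.34 without clone 2. The authors' deposited table calls S100a16 between knockout and control (q-value 9.22e-04) and between wild-type rescue and knockout (q-value 0.00885).

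S100a3, known from the hair cuticle, was the lowest member with a signal. It was at 3.59 and 10.1 FPKM in TAFH-deleted clones, 2.19 and 2.45 in wild-type rescue clones, 4.25 and 3.32 in knockout, and 3.54 and 4.32 in control. TAFH-deleted clone 2 stood above all others, with 83 fragments against 26 in clone 1 and 19 to 38 in the other libraries. Its exact Poisson 95% interval, 8.02 to 12.5 FPKM, lay above that of clone 1, 2.34 to 5.26 FPKM. The difference between the rescue forms, 1.10 ± 0.47 (SE, limma adjusted p = 0.217), was 1.74 without TAFH-deleted clone 1 and 0.47 without clone 2, so its size rests largely on 1 library.

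S100a1, best known as a regulator of calcium handling in muscle, was at 105.8 and 73.5 FPKM in TAFH-deleted clones, 92.9 and 89.5 in wild-type rescue clones, 93.2 and 93.7 in knockout, and 81.2 and 80.0 in control. The TAFH-deleted clones spanned all other libraries. The S100a1 difference between the rescue forms was -0.31 without TAFH-deleted clone 1 and 0.21 without clone 2, so its direction turned with the clone kept. S100a13, which takes part in the release of FGF1 and interleukin 1 alpha from cells, was at 59.3 and 56.9 FPKM in TAFH-deleted clones, 54.2 and 55.2 in wild-type rescue clones, 60.4 and 59.3 in knockout, and 53.4 and 51.0 in control. Its range over the 6 samples, 0.19 on the log2(FPKM + 1) scale, was the smallest of the 9, against 3.71 for S100a8. In the fit of 6 samples neither gene passed the limma test in any of the 5 comparisons. There knockout minus control was 0.21 ± 0.27 (SE) for S100a1 (adjusted p = 0.814) and 0.19 ± 0.10 for S100a13 (adjusted p = 0.624). In the limma fits that count 8 libraries S100a13 passed in this comparison (adjusted p = 0.0245, and 0.0442 with a replicate block). So did 2857 and 2019 of the 12025 tested genes. The authors' deposited table calls S100a1 between knockout and control (q-value 0.0197) and not S100a13 (q-value 0.0559).

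By comparison, the counts were as follows. Between TAFH-deleted and wild-type rescue, 2 of the 9 tested members were called, S100a8 lower (as were 1.69% of tested genes) and S100a10 higher (0.931%), against 2.62% of all tested genes called in either direction. In 6 of the 9 the clones of the 2 forms did not overlap, against 63.5% of tested genes, so that share is close to the background. In each of the other 4 comparisons 0 members were called by limma, against 0% of tested genes, because no gene was called there. At an unadjusted p under 0.05 there were 1 of 9 members in knockout against control (9.21% of tested genes), 3 in wild-type rescue against knockout (13.3%), 2 in TAFH-deleted rescue against knockout (6.56%), 2 between the rescue forms (28.8%) and 2 in wild-type rescue against control (11.1%). At least a 2-fold difference on the log2(FPKM + 1) scale was seen in 0 of 9 members in knockout against control (6.56%), 0 in wild-type rescue against knockout (3.95%), 1 in TAFH-deleted rescue against knockout (3.65%), 2 between the rescue forms (8.54%) and 2 in wild-type rescue against control (4.80%). The 3 comparisons with knockout share its sample and the 2 with control share theirs. The authors' deposited table calls 4 of the 9 members between knockout and control (53.8% of the transcripts tested there), 3 between wild-type rescue and knockout (25.8%) and 0 between TAFH-deleted rescue and knockout (0.957%).

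**Figure D3:**
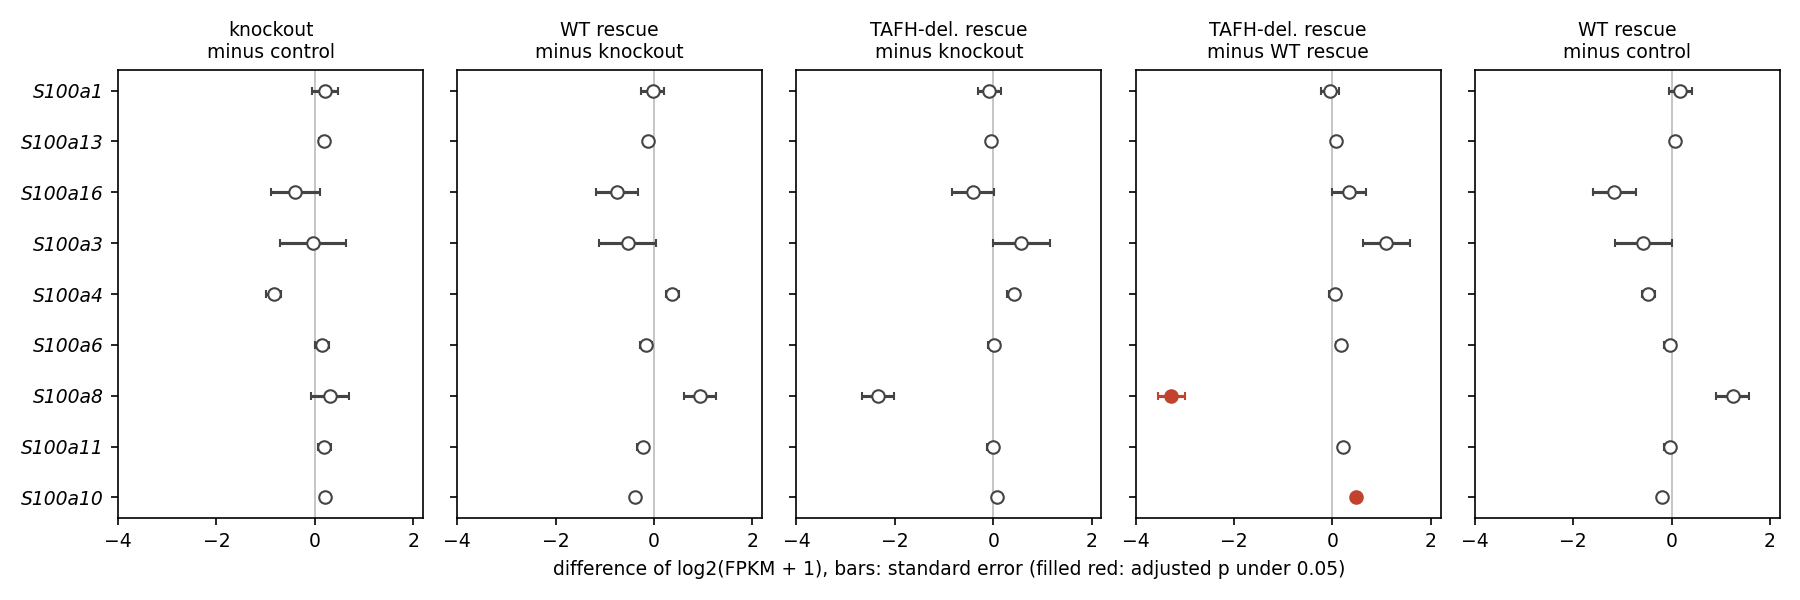
Difference of log2(FPKM + 1) (horizontal axis) with its standard error (bars) for the 9 tested S100 genes (vertical axis, in chromosomal order) in 5 comparisons. Filled red points passed an adjusted p of 0.05, which only S100a8 at -3.27 and S100a10 at 0.48 did, both between the rescue forms.

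Of the 6 most abundant members, 5 differed little between knockout and control in the number of fragments, and S100a4 did not follow them. FPKM divide fragments by the library's total, and the knockout totals (14.8 M fragments) were below the control totals (17.3 M fragments), a log2 ratio of 0.22. In knockout against control the log2 ratio of FPKM was 0.21 for S100a1, 0.14 for S100a6, 0.21 for S100a10, 0.20 for S100a11 and 0.20 for S100a13. For the same genes the log2 ratio of fragments was -0.01, -0.08, -0.01, -0.03 and -0.03. Thus in these 5 genes the higher FPKM in knockout came with nearly equal fragments. Across tested single-transcript genes, the median log2 fragment ratio was -0.08 where fragments numbered 40% or more of transcript bases on both strands. It was -0.20 at 20% to 40%. S100a1, S100a6 and S100a10 fell in the higher range, at or above its median. S100a11 and S100a13 fell in the lower range, above its median. A ratio near that of the S100 genes was thus also the median of the higher range. S100a11 had 239 and 243 fragments in TAFH-deleted clones, 224 and 237 in wild-type rescue clones, 236 and 238 in knockout, and 239 and 244 in control. S100a6 had 786 to 839 fragments over the 8 libraries and S100a13 had 432 to 477. The library totals moved with these differences, and their part in them was not tested.

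S100a4 differed on both scales: it had 350 and 357 fragments in knockout against 741 and 747 in control, a log2 fragment ratio of -1.07. S100a10 also differed in fragments between the rescue forms, with 871 and 932 in TAFH-deleted clones and 719 and 724 in wild-type rescue clones, a log2 fragment ratio of 0.32 beside 0.48 for FPKM.

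**Figure D4:**
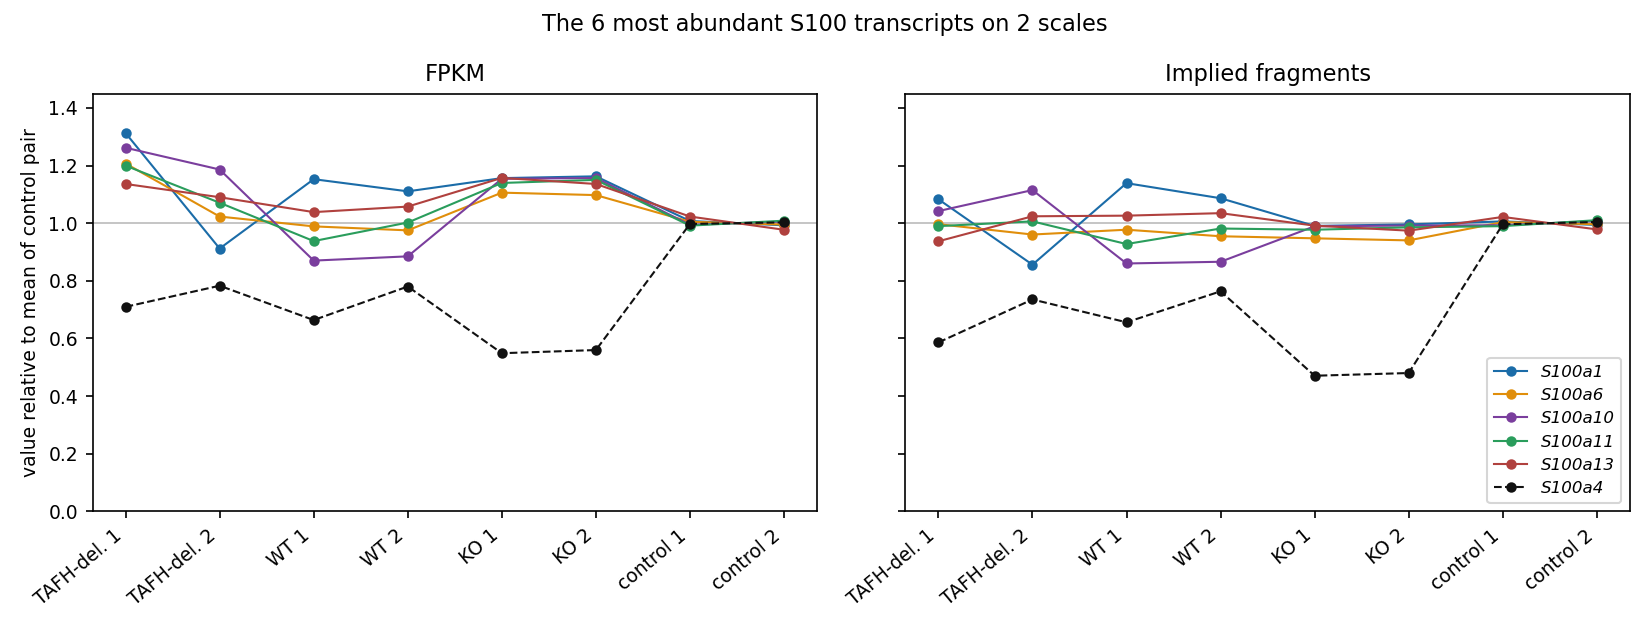
FPKM (left) and implied fragments (right) of the 6 most abundant S100 genes in each library (horizontal axis), divided by the mean of the control pair (vertical axis, from 0). In knockout (KO) the 5 genes drawn with solid lines lie above 1 in FPKM and near 1 in fragments, while S100a4 (dashed) lies well below 1 on both.

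The abundant members also had many fragments for the length of their transcripts. Fragments divided by the bases of the transcript on both strands gave 55.3% to 71.7% in S100a10, 54.7% to 58.3% in S100a6, 35.1% to 74.9% in S100a4 and 39.8% to 53.0% in S100a1. This ratio is called the share of positions in use below. It equals that share only if each fragment has its own start, which was not checked. Of the 9 tested members 4 averaged at least 40%, against 10.0% of the 9216 tested genes with a single transcript. Across those genes the median of knockout minus control was -0.21 where under 2% of positions were in use, 0.02 at 20% to 40% and 0.14 at 40% or more. S100a1, S100a6 and S100a10, at 0.14 to 0.21, lay close to the last of these, and S100a4 at -0.84 lay far below it. The share is computed from the fragments, so it rises with the level of a gene and is not a measure apart from level. Genes of a higher share, and so of a higher level, thus leaned higher in knockout. The part of share or level in the values of single members was not tested.

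**Figure D5:**
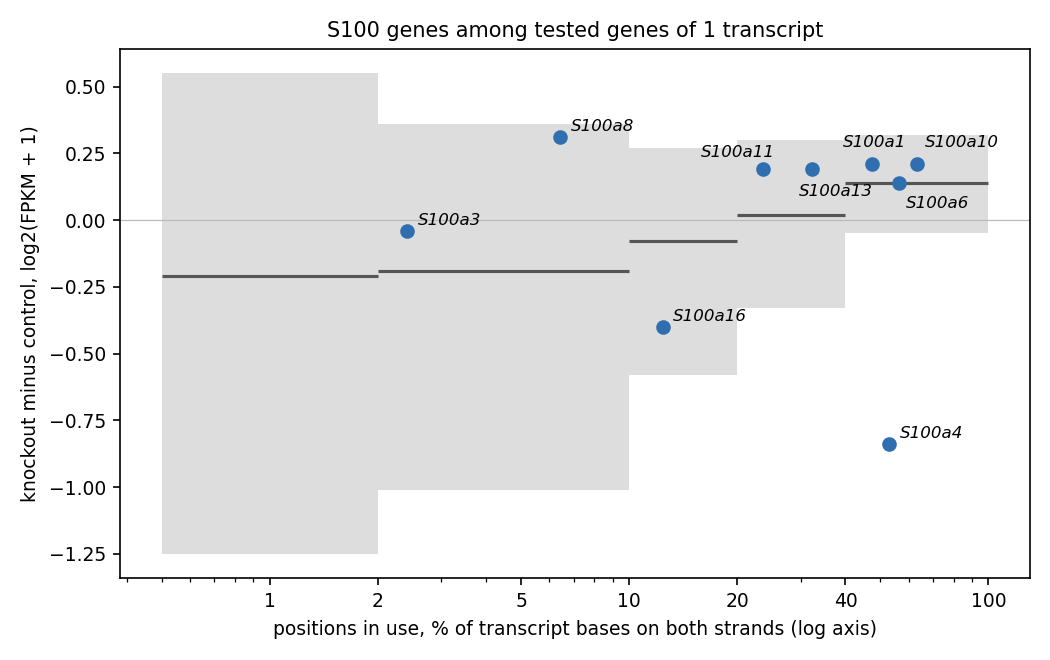
Knockout minus control on the log2(FPKM + 1) scale (vertical axis) for the 9 tested S100 genes (points). The log axis gives mean fragments as a share of transcript bases on both strands, in percent, labelled as positions in use. Grey boxes span the percentiles 10 to 90, and lines the medians, of the 9216 tested genes with 1 transcript in 5 ranges of that share (the lowest, from 0, is drawn from 0.5). S100a4 lies below its box and S100a1, S100a6 and S100a10 near its median of 0.14.

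Of the other S100 family genes, 7 were in the table and 2 were tested. S100a7a, between S100a6 and S100a8 on chromosome 3, was at 15.7 and 64.8 FPKM in TAFH-deleted clones, 15.3 and 12.9 in wild-type rescue clones, 17.2 and 16 in knockout, and 26.3 and 23.8 in control, and passed no limma test. As for S100a3, the high value was in TAFH-deleted clone 2 alone. S100g, the X-linked calbindin D9k gene, was at 0.254 and 0 FPKM in TAFH-deleted clones, 0.425 and 0 in wild-type rescue clones, 2.45 and 2.45 in knockout, and 0.420 and 0.210 in control. Its difference between knockout and control, 1.39 ± 0.35 (SE), did not pass (limma adjusted p = 0.417). S100g reached 1 FPKM in the knockout pair alone, so the filter on low values fixed the direction of this difference. S100a5, S100a14, S100b, S100a2 and S100z stayed too low to test, and S100z was listed at 0 throughout.

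Genes around the members were mostly too low to test. Between the first and the last member the table holds 56 other genes, of which 4 were tested: S100a7a and the small proline-rich genes Sprr1a, Sprr2h and Sprr2k, which encode precursors of the epidermal cornified envelope. Sprr1a was at 0 and 0.210 FPKM in TAFH-deleted clones, 0.10 and 0 in wild-type rescue clones, 0 and 0 in knockout, and 8.11 and 11.1 in control. Sprr1a minus control was -3.41 ± 0.24 (SE, limma adjusted p = 0.128) in knockout and -3.34 ± 0.21 (adjusted p = 0.0719) in wild-type rescue, and all 4 rescue clones stayed at or under 0.210 FPKM. Sprr2h, at 1.71 and 1.60 FPKM in control, and Sprr2k, at 1.60 and 1.33, stayed at or under 0.135 FPKM in all other libraries. Sprr1a, Sprr2h and Sprr2k reached 1 FPKM in the control pair alone, so the filter on low values fixed the direction of their differences from control. The summed level of 8 keratinocyte and epithelial markers was also highest in control, at 1.94 and 4.92 FPKM in TAFH-deleted clones, 5.0 and 5.33 in wild-type rescue clones, 4.11 and 2.97 in knockout, and 12.5 and 11.4 in control. Only Krt19 and Trp63 of them reached 1 FPKM, and Epcam and Krt8 were at 0 throughout. Trp63 differed by -2.76 ± 0.40 (SE, limma adjusted p = 0.202) in knockout against control, and Krt19 by -0.25 ± 0.75 (0.924). Unlike the Sprr genes, Trp63 was at 4.12 and 4.91 FPKM in wild-type rescue clones, beside 7.86 and 7.46 in control. Krt19 was highest in TAFH-deleted clone 2, at 4.80 FPKM, beside 4.36 and 3.76 in control. The part of these markers in the Sprr values was not tested. Of 13 epidermal differentiation genes listed, 12 stayed under 0.5 FPKM everywhere.

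The proteins that S100 members bind were followed through lists of annexins, of partners and receptors, and of other EF-hand calcium sensors. Of 10 tested annexins 0 were called in the 5 comparisons by limma, with 8 higher and 2 lower in TAFH-deleted than in wild-type rescue clones and a median of 0.18, beside 0.06 for all tested genes. Anxa8 differed most: it was at 51.6 and 85.0 FPKM in TAFH-deleted clones, 14.9 and 23.5 in wild-type rescue clones, 64.2 and 65.0 in knockout, and 41.4 and 41.2 in control. Its difference between the rescue forms was 1.77 ± 0.34 (SE, limma adjusted p = 0.0741), and between wild-type rescue and knockout -1.74 ± 0.41 (0.293). The next largest were Anxa4 between the rescue forms at 0.34 and Anxa3 between wild-type rescue and knockout at -0.27. Anxa7 and Anxa4 led TAFH-deleted rescue against knockout at 0.23 each. In knockout against control Anxa8 (0.63) and Anxa9 (0.47) stood furthest from 0, and in wild-type rescue against control Anxa8 (-1.10) and Anxa9 (0.34).

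Of 23 tested partners and receptors, 12 were higher and 11 lower in TAFH-deleted than in wild-type rescue clones, with a median of 0.02. The 1 called was Ptprf, a receptor tyrosine phosphatase, at 5.66 and 5.90 FPKM in TAFH-deleted clones and 14.1 and 13.8 in wild-type rescue clones (-1.14 ± 0.15, SE, limma adjusted p = 0.0499). Myh9, the myosin target of S100a4, was at 81.7 and 81.6 FPKM in knockout and 78.2 and 78.1 in control, and showed no difference of the size seen in S100a4. Tlr4, a receptor for the S100a8 and S100a9 complex, was at 11.4 and 11 FPKM in TAFH-deleted clones, 15.5 and 15.9 in wild-type rescue clones, 9.81 and 9.25 in knockout, and 15.8 and 15.8 in control. Ager, another receptor, reached no more than 2.55 FPKM. In comparisons with no call the furthest were Ptprf (-1.17) and Tlr4 (-0.67) in knockout against control, Cdh17 (1.25) and Ezr (-1.04) in wild-type rescue against knockout, Tgm2 (-2.30) and Ager (-0.58) in TAFH-deleted rescue against knockout, and Ezr (-1.03) and Cdh17 (0.74) in wild-type rescue against control.

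Of 20 tested EF-hand calcium sensors outside the S100 family, 16 were higher in TAFH-deleted than in wild-type rescue clones, with a median of 0.18. Cetn2, a centriole protein, was the 1 called, at 44.7 and 43.2 FPKM in TAFH-deleted clones and 17.1 and 19.8 in wild-type rescue clones (1.21 ± 0.11, SE, limma adjusted p = 0.0407). Elsewhere none was called, and the furthest from 0 were Cetn3 (-0.55) and Efhd2 (-0.52) in knockout against control, Hpcal1 (-0.90) and Cetn2 (-0.78) in wild-type rescue against knockout, Ncs1 (0.50) and Cetn2 (0.43) in TAFH-deleted rescue against knockout, and Cetn2 (-0.89) and Efhd2 (-0.75) in wild-type rescue against control. The median of the 9 S100 members between the rescue forms was 0.18, as for the annexins and the EF-hand sensors. The median of all tested genes was 0.06 in this comparison. That of tested single-transcript genes was 0.13 at 20% to 40% of positions in use and 0.14 at 40% or more. The log2 ratio of library totals was 0.16. The medians of 0.18 lay near these last values, and the part of totals and of positions in use in them was not tested.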

How the data were processed

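RNA of 8 fibroblast libraries was sequenced with an Illumina mRNA protocol, per the labels' protocols. Per the submitters' processing notes, CASAVA 1.8, TopHat, Cufflinks and Cuffdiff were used with mm9; other versions and options are not given in the sources used here. The authors deposited FPKM for 30028 transcripts of 23235 symbols, with their own group means, and p-values and q-values for 3 comparisons. Date-like symbols (47) were restored by transcript accession from a GRCm38.p6 RefSeq table. FPKM were summed per gene and chromosome.

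Genes reaching 1 FPKM in 2 or more libraries (12209) and a transcript of at least 300 bases (12025) were tested with limma 3.58.1 (R 4.3.3, lmFit and eBayes with trend) on log2(FPKM + 1). The fit held 6 samples, the knockout and control pairs averaged, with 2 residual and 2.15 prior degrees of freedom, no covariates, two-sided, Benjamini-Hochberg over all genes at 0.05. It was tested on simulated data. Fragments were FPKM times the length less 204.1 bases times the implied total. In single-transcript genes of at least 1000 bases, 97.6% to 99.9% of the 800 lowest values per library were whole within 0.05 fragments, and the members' values were within 0.0638. Read length is not stated, so positions in use are counted over all transcript bases.

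The members and gene lists were chosen with earlier results of these data known. All members were named; of other genes, list members by size or call, and S100a8's 5 nearest profiles. Beyond that rule, Anxa2, Myh9, Tlr4, Lyz2 and the Sprr2 genes were picked with their values in view. Alternatives changed the filter, pseudocount, scaling, transcript sum, pair averaging, replicate block, groups fitted and libraries kept. Correlations of same-numbered libraries' deviations ranged from -0.08 to 0.06.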

Additional observations from a re-analysis of the deposited data

Results flagged for a closer look

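The effects of the 2 rescue forms, each against knockout, differed in 2 S100 genes by the test of that difference, which is TAFH-deleted minus wild-type rescue. For S100a8 it was -3.27 on the log2(FPKM + 1) scale (limma adjusted p = 0.0389), with both TAFH-deleted clones below and both wild-type rescue clones above the knockout and control libraries. For S100a10 it was 0.48 (limma adjusted p = 0.0497), with both TAFH-deleted clones above and both wild-type rescue clones below the knockout and control libraries. Groups of 2 are too small for a check of single outlying libraries.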

How the results depend on the processing

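The S100 members called numbered 0 in knockout against control, wild-type rescue against knockout, TAFH-deleted rescue against knockout and wild-type rescue against control, and 2 between the rescue forms. With 8 libraries each counted they were 3, 4, 2 and 4, and with a replicate block on these libraries 3, 3, 2 and 3 in the same order. Of the 12025 tested genes, the first fit called 2857, 2998, 1074 and 2429, and the second 2019, 2232, 461 and 1622. These fits count each averaged pair as 2 samples. Between the rescue forms those fits called no more than 3 members, and 4566 and 3921 of all tested genes. Fitted with only the groups compared, members were also called in wild-type rescue against knockout and against control. There the averaged pair is 1 sample, and many other genes passed too. Between the rescue forms that fit called 1 member, S100a8, and 230 of all tested genes. The member count between the rescue forms was also 1 with a pseudocount of 0.1 FPKM, after quantile normalization and with the highest transcript in place of the sum. It was 0 with no filter on low values, where 22488 genes were tested. All genes called there numbered 142, 180, 86 and 287 in that order. When 1 replicate or clone was left out, counts ranged from 0 to 3, 0 to 5, 0 to 4 and 0 to 4 in the first 4 comparisons and from 0 to 5 between the rescue forms. Every count above 0 in the first 4 came from leaving out a TAFH-deleted clone. The replicate numbers are not given as pairing the samples, and the cause of the other changes was not tested. Over the refits of the 45 member differences, 570 kept direction and call, 67 passed that had not, 10 no longer passed and 19 changed sign. Of these, the S100a1 difference between the rescue forms turned direction, at -0.31 without TAFH-deleted clone 1 and 0.21 without clone 2. Quantile normalization turned knockout minus control to -0.02 for S100a10, 0.29 for S100a3 and -0.04 for S100a6, wild-type rescue minus knockout to 0.12 for S100a1 and 0.01 for S100a6, TAFH-deleted minus wild-type rescue to -0.03 for S100a13 and -0.07 for S100a4, and wild-type rescue minus control to 0.02 for S100a11. Leaving out 1 library gave ranges that include 0 for S100a3 in knockout against control (-0.19 to 0.09), for S100a1 (-0.34 to 0.18), S100a3 (-0.06 to 1.21), S100a6 (-0.11 to 0.13) and S100a11 (-0.09 to 0.06) in TAFH-deleted rescue against knockout, for S100a1 (-0.31 to 0.21), S100a4 (-0.07 to 0.17) and S100a16 (-0.07 to 0.75) between the rescue forms, and for S100a11 in wild-type rescue against control (-0.09 to 0.00). Few fragments limit S100a8 and S100a3 most.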
